A study of Mus musculus with 4 samples.

Results

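Lysosomal glycosidases were described here through the 8 genes Hexa, Glb1, Neu1, Gla, Gusb, Naglu, Gaa and Man2b1 in primary smooth muscle cells of the mouse aorta. The members were the probes of 4 two-colour Agilent arrays that carry 1 of these 8 gene names. The rule uses gene names alone, but the 8 names were picked with earlier results of these data known. They had 14 probes, of which 11 were well above background. All 8 genes were among the 12367 genes tested. The 2 genotypes were Atg7F/F SM22α-Cre+ and Atg7+/+ SM22α-Cre+, both labelled as strain C57LB/6. Cre recombinase, which cuts out DNA between loxP sites, was thus present in both genotypes, under a promoter active in smooth muscle. Cultures grew in DMEM/F-12 containing 10% serum and were taken at passages 4 to 10. There were 2 biological replicates per genotype, and the labels do not say how many animals each came from. Each Atg7F/F extract was hybridised with the Atg7+/+ extract of the same number on 2 arrays with exchanged dyes. The comparison asks which transcripts differ when Atg7, the enzyme that starts ATG8 lipidation in autophagy, is targeted in these cells.

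Lysosomal glycosidases are acid hydrolases that remove sugars from glycolipids, glycosaminoglycans, glycogen and glycoproteins brought to the lysosome by endocytosis or autophagy. Most are made in the endoplasmic reticulum, tagged with mannose 6-phosphate in the Golgi and sorted by receptors. Inherited loss of single members causes storage diseases, among them Tay-Sachs (HEXA), Fabry (GLA) and Pompe disease (GAA). Many of their genes are targets of TFEB and its relatives, which bind an E-box motif in promoters.

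In each channel, 43.3% to 45.5% of spots stood well above background, and 0 were saturated. Log2 ratios are Atg7F/F over Atg7+/+, given as the mean of the 2 replicates ± SD, n = 2, where each replicate is the mean of its dye-swapped arrays. Levels are log2 signals normalized across arrays. The Atg7 probe had levels of 7.06 and 6.94 in Atg7F/F cells, against 8.23 and 8.20 in Atg7+/+ cells. Its ratio was -1.22 ± 0.07, below 0 on all 4 arrays, with a limma adjusted p of 0.937. Which exon is floxed is not in the labels, and this probe may lie outside the deletion. Of the smooth muscle markers, 8 of 9 were measured, with summed linear signals of 336500 and 300500 in Atg7F/F and of 355600 and 350100 in Atg7+/+ extracts. Of the 12 macrophage and leukocyte markers, 8 were not measured, among them Adgre1, Ptprc, Itgam and Mrc1.

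All 8 glycosidases had a mean log2 ratio below 0, from -0.41 for Glb1 to -0.13 for Gusb, and none passed the test. Their median was -0.26, and the median of all genes tested was 0.00338. Hexa, Gla, Glb1 and Gusb were lower in Atg7F/F on all 4 arrays, and 0 members were higher on all 4. That is 4 of 8, where 9.94% of all genes tested were lower on all 4 arrays and 10.6% higher. The other 11 lysosomal glycosidases measured had a median of -0.03, with 2 lower on all 4 arrays. The mean ratios were below 0 for 48.6% of all genes. Hexa, Gaa and Neu1, 3 of 8, had both Atg7F/F levels below both Atg7+/+ levels, against 10.1% of all genes. In bulk RNA, fewer cells of a type and less RNA per cell cannot be told apart.

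**Figure D1:**
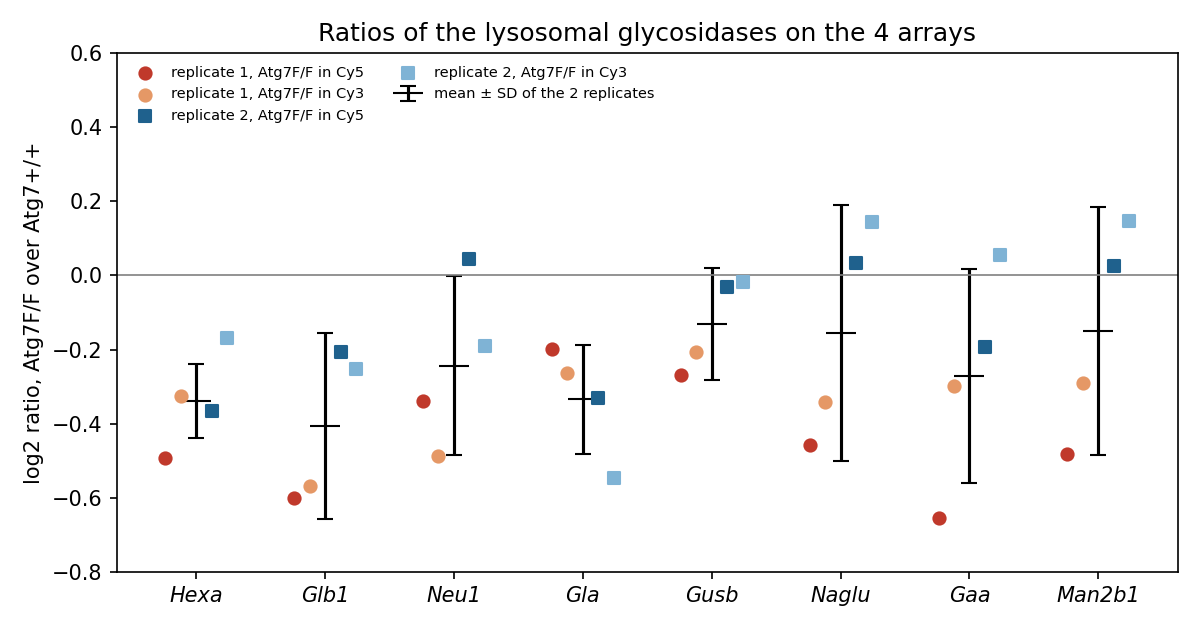
Log2 ratios of Atg7F/F over Atg7+/+ for the 8 lysosomal glycosidases on the 4 arrays, with circles for replicate 1, squares for replicate 2, and a bar for the mean ± SD of the 2 replicates. All circles lie below 0, both squares of Naglu and of Man2b1 lie above it, and Gaa and Neu1 have 1 square above it each.

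The 2 replicates did not contribute alike. In replicate 1 the median over the 8 members was -0.40, and 8 of 8 were lower on both arrays, against 29.8% of all genes. In replicate 2 the median was -0.07, and 4 of 8 were lower on both arrays, against 35.0% of all genes. The genes tested whose signal lay in the members' range, 5343 in number, had medians of -0.000618 in replicate 1 and 0.0139 in replicate 2. The count of members lower on all 4 arrays also rested on the loess step. With median centring in its place, which shifts the median of all genes to 0.187 and -0.177 on the arrays of replicate 1 and to 0.332 and -0.165 on those of replicate 2, the count was 0 of 8. The mean ratio of each member stayed below 0 there. The 9.94% of all genes lower on all 4 arrays holds for loess, and no such share is given for median centring.

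With an adjusted p under 0.05 as the threshold, limma called 0% of the 12367 genes in either direction. Unadjusted p-values under 0.05 were reached by 203 genes that were lower in Atg7F/F, or 1.64%, and by 166 that were higher, or 1.34%. Among them were 3 glycosidases, all lower: Hexa, Gla and Glb1. These unadjusted p-values depended on the processing: in the order Hexa, Gla and Glb1 they were 0.0638, 0.0594 and 0.0595 with a normexp offset of 0, and 0.103, 0.0741 and 0.0688 from the deposited log2 ratios. With median centring they were 0.167, 0.0569 and 0.107, and with a trended prior variance 0.0512, 0.0682 and 0.0544. With no replicate block they were 0.0252, 0.211 and 0.255. Without background subtraction they were 0.0346, 0.0475 and 0.0343, and with no filter on dim probes 0.0131, 0.0262 and 0.0475. The mean over all probes of a gene gave 0.0271, 0.0376 and 0.0897. The adjusted p of each of the 8 members was 0.9998. For 2 replicates, the smallest two-sided p of an exact test by sign changes is 0.5.

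In 4 of the 8 genes the promoter window contains CACGTG, the E-box within the CLEAR element that TFEB binds. They are shown here because this motif is shared by part of the set. The sequences are RefSeq promoters of GRCm38.p6, 5′ to 3′ on the gene's strand, limited to the 250 bases before the start, with each CACGTG in capitals. Gla lies at chrX:134601006-134601255 on the minus strand, Glb1 at chr9:114400828-114401077, Gaa at chr11:119267713-119267962 and Naglu at chr11:101069844-101070093 on the plus strand.
Gla: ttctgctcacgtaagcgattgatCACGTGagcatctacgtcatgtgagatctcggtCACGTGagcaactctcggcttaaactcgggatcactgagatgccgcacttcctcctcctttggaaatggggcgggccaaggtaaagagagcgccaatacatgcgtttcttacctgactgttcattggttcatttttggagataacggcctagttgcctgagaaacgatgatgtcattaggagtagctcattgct
Glb1: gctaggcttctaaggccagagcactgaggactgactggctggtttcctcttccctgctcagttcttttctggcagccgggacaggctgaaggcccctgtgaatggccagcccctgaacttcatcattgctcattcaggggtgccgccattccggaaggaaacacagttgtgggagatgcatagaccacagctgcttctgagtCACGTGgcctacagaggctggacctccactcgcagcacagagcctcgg
Gaa: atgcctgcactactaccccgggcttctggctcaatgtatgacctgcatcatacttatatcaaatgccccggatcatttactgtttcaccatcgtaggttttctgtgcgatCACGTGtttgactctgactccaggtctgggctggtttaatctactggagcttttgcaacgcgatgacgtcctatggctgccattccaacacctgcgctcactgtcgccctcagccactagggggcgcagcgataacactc
Naglu: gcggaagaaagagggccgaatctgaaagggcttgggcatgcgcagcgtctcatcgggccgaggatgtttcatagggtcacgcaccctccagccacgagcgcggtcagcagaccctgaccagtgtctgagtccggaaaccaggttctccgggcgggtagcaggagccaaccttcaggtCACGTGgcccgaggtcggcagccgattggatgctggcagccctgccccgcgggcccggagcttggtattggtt

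All 8 genes matched a promoter window, and CACGTG reads the same on both strands. Its first base stands 227 and 194 bases before the start in Gla, 48 in Glb1, 140 in Gaa and 73 in Naglu. The search covered whole promoter windows, which are longer than the stretches printed above. Of all 32851 windows, 7.15% hold the motif. The longer palindrome TCACGTGA, which contains it, was found in 1 of the 8, Gla, with 2 copies, and in 0.974% of all windows. GTCACGTG, on either strand and overlapping the other motifs, was found in Gla, Glb1 and Naglu, and in 2.25% of all windows. The windows of Hexa, Gusb, Neu1 and Man2b1 lack these letters. The genes with the motif had mean ratios of -0.33, -0.41, -0.27 and -0.16 in the order printed, and those without had -0.34, -0.13, -0.24 and -0.15, so their ranges overlap.

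Hexa, Glb1 and Neu1 act on gangliosides and other sialylated or galactosylated chains. Hexa encodes the alpha subunit of hexosaminidase A, which splits the GM2 ganglioside. Its probe, at chr9:59411712-59411771 of mm9, had raw mean intensities of 8119 for Atg7F/F in Cy5 against 7530 for Atg7+/+ in Cy3 in replicate 1. With the dyes exchanged it had 5352 for Atg7F/F in Cy3 against 9899 for Atg7+/+ in Cy5. In replicate 2 the same pairs were 6926 against 6868 and 5392 against 8629. Cy5 was the brighter channel on each of the 4 arrays, whichever genotype it held, and the gap was wider where Cy5 held Atg7+/+.

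After normalization, Hexa levels were 12.64 (replicate 1) and 12.65 (replicate 2) in Atg7F/F extracts, against 13.05 and 12.92 in the Atg7+/+ extracts. The groups did not overlap, and the Atg7F/F extracts differed from each other by less than the genotypes did. The ratios were -0.49 and -0.32 on the arrays of replicate 1 and -0.37 and -0.17 on those of replicate 2. The mean was -0.34 ± 0.10, or 1.26-fold lower, with a 95% interval of -0.63 to -0.05 by limma and an unadjusted p of 0.0328.

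Glb1, the acid beta-galactosidase that also serves as the senescence stain enzyme, had a mean of -0.41 ± 0.25, or 1.33-fold lower, by its brighter probe, and -0.31 as the mean over both probes. Its levels were 10.33 and 9.93 in Atg7F/F extracts, against 10.92 and 10.16 in Atg7+/+ extracts. Both genotypes were higher in replicate 1 than in replicate 2. The 2 Atg7+/+ extracts differed by 0.76, more than the genotypes did, so the groups overlap. Within pairs, the arrays of replicate 1 gave ratios of -0.60 and -0.57, and those of replicate 2 gave -0.21 and -0.25, with little difference between dyes. The 95% interval was -0.81 to -0.0052 and the unadjusted p 0.0484. That probe lies at chr9:114383136-114383195 of mm9. The other Glb1 probe was dim and spans 5087 bases of the genome at chr9:114347059-114352145, so its sequence is split there. It gave -0.38 in replicate 1 and -0.03 in replicate 2, with a mean of -0.20 ± 0.25, and was above 0 on 1 of the 4 arrays.

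Neu1, the sialidase that trims terminal sialic acids and needs the protein of Ctsa to be active, had levels of 11.15 and 11.51 in Atg7F/F, against 11.57 and 11.58 in Atg7+/+ extracts. The Atg7+/+ extracts were nearly equal and the Atg7F/F extract of replicate 1 was the low one. Ratios on the replicate 1 arrays were -0.34 and -0.49, with 0.04 and -0.19 on the replicate 2 arrays, for a mean of -0.24 ± 0.24. The other probe, upstream at chr17:35071709-35071768 of mm9, was lower on all 4 arrays, with -0.52, -0.36, -0.26 and -0.22 and a mean of -0.34 ± 0.14. The sign in replicate 2 on the array with Atg7F/F in Cy5 thus depended on the probe.

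Gla, the alpha-galactosidase that removes terminal galactose from globotriaosylceramide, was the 1 member with a lower ratio in replicate 2 than in replicate 1. Its levels were 8.70 and 8.18 in Atg7F/F extracts, against 8.93 and 8.62 in Atg7+/+ extracts. The groups overlap, since the replicates differed within each genotype. The arrays of replicate 1 gave ratios of -0.20 and -0.26, and those of replicate 2 gave -0.33 and -0.55, for a mean of -0.33 ± 0.15, or 1.26-fold lower. The 95% interval was -0.65 to -0.02 and the unadjusted p 0.0435. The second Gla probe was well above background in the Atg7F/F channel of 1 array and in no Atg7+/+ channel, and was not used. The probe used lies at chrX:131124444-131124503 of mm9.

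**Figure D2:**
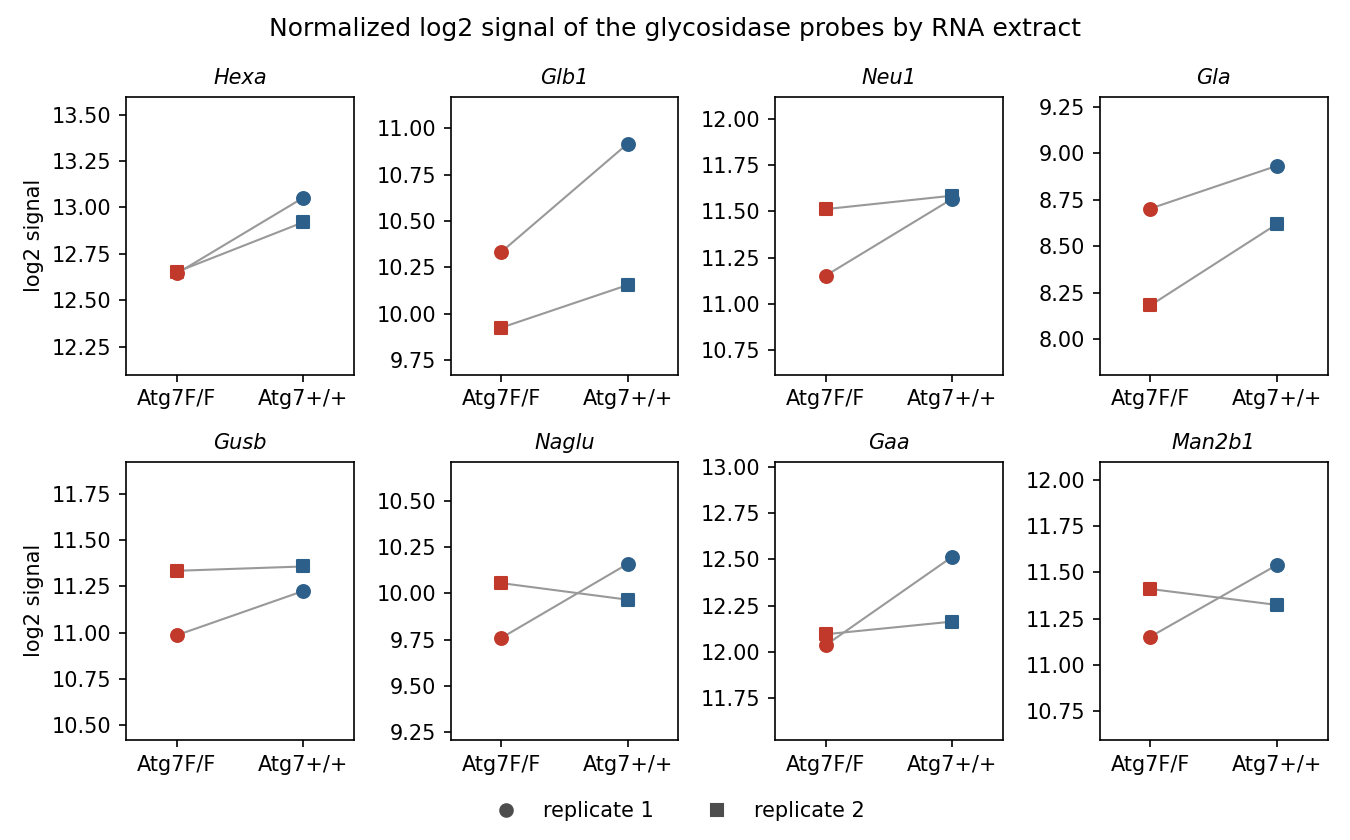
Normalized log2 signal of the probe used for each gene in the Atg7F/F (left) and Atg7+/+ (right) extracts, with a line joining the extracts of 1 replicate (circles, replicate 1, squares, replicate 2) and every panel covering the same span of log2 units. Both lines of each gene climb to Atg7+/+ except in Naglu and Man2b1, where the line of replicate 2 descends.

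Gusb and Naglu act on glycosaminoglycans. Gusb, beta-glucuronidase, removes glucuronic acid from heparan, dermatan and chondroitin sulfate. Its level was 10.99 and 11.33 in Atg7F/F extracts, against 11.22 and 11.36 in Atg7+/+ extracts, so the groups overlap. Replicate 1 had a ratio of -0.24 and replicate 2 one of -0.02, for a mean of -0.13 ± 0.15. This was the mean nearest to 0 of the 8, and the ratio was below 0 on all 4 arrays.

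The Gusb probe at chr5:130465133-130465192 of mm9 is printed 10 times per array, which shows the error of a single spot. Raw intensities of the 10 spots ran from 1947 to 3006 for Atg7F/F in Cy5 on the first array of replicate 1, and from 1641 to 2541 for Atg7+/+ in Cy3. Their ratios there ran only from -0.30 to -0.22, with an SD of 0.03 over spots. On the other 3 arrays the SD over spots was between 0.03 and 0.04. In replicate 1 all spots were below 0, and in replicate 2 they ran from -0.08 to 0.02 and from -0.09 to 0.04, on both sides of 0. The other Gusb probe, of 1 spot, was lower on all 4 arrays at -0.13 ± 0.04.

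Naglu, the alpha-N-acetylglucosaminidase of heparan sulfate breakdown, had levels of 9.76 and 10.05 in Atg7F/F extracts, against 10.16 and 9.97 in Atg7+/+ extracts. The order of the genotypes was opposite in the 2 replicates. Ratios on the replicate 1 arrays were -0.46 and -0.34, with 0.03 and 0.14 on the replicate 2 arrays, and the mean of -0.16 ± 0.35 lay within the spread. Its interval of -0.65 to 0.34 leaves either direction possible. The probe used lies at chr11:100938631-100938690 of mm9. The other stayed near background on all arrays and was not used.

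Gaa, the acid alpha-glucosidase that clears glycogen in lysosomes, had levels of 12.04 and 12.10 in Atg7F/F extracts, against 12.51 and 12.16 in Atg7+/+ extracts. The groups did not overlap, but in replicate 2 they were 0.07 apart. The arrays of replicate 1 gave ratios of -0.66 and -0.30, and those of replicate 2 gave -0.19 and 0.06, for a mean of -0.27 ± 0.29. The dye effect, taken as the deviation of the arrays with Atg7F/F in Cy5 from the mean of both orientations, was -0.15 for Gaa, where the median of its size over all genes was 0.06. The probe lies at chr11:119146331-119146390 of mm9.

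Man2b1, the alpha-mannosidase that trims N-linked glycans of glycoproteins, followed the same course as Naglu. Its levels were 11.15 and 11.41 in Atg7F/F extracts, against 11.54 and 11.32 in Atg7+/+ extracts. Ratios on the replicate 1 arrays were -0.48 and -0.29, with 0.02 and 0.15 on the replicate 2 arrays, for a mean of -0.15 ± 0.33 and an interval of -0.63 to 0.33. The replicates had opposite signs. The probe used lies at chr8:87621348-87621407 of mm9. Its second probe stayed near background on all arrays and was not used.

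Other lysosomal glycosidases did not share one direction. Of 12 listed, 11 were measured and 0 were called in either direction, with a median of -0.03. On all 4 arrays, 2 were lower and 1 was higher, where 9.94% of all genes were lower and 10.6% higher. Manba, the beta-mannosidase that acts on the glycans after Man2b1, had levels of 9.25 and 9.31 in Atg7F/F, against 8.74 and 8.93 in Atg7+/+ extracts. Its ratio was 0.44 ± 0.08, above 0 on each array, and its dimmer probe gave 0.22. Idua, the iduronidase of heparan and dermatan sulfate, had levels of 6.66 and 6.68 in Atg7F/F, against 7.22 and 6.93 in Atg7+/+ extracts. Its ratio was -0.40 ± 0.22, below 0 on each array. The Idua probe was dim, at a mean log2 signal of 6.89, where the unused probes of Gla, Naglu and Man2b1 had 6.24 to 6.42.

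Proteins that hold or activate glycosidases were listed as 3 genes, all measured, 0 called. Ctsa, the protective protein that binds Neu1 and Glb1 in a complex, had levels of 13.49 and 13.01 in Atg7F/F, against 13.97 and 13.34 in Atg7+/+ extracts. Its ratio was -0.40 ± 0.10 and its other probe gave -0.38. Psap, the precursor of the saposins that present lipids to Gla and other hydrolases, had 10.52 and 10.22 in Atg7F/F, against 10.89 and 10.57 in Atg7+/+ extracts, with -0.37 ± 0.01. By array, Psap had -0.63 and -0.50 with Atg7F/F in Cy5, and -0.11 and -0.22 in Cy3. Both genes were lower on all 4 arrays, where 9.94% of all genes were lower and 10.6% higher. Gm2a, the activator that lifts GM2 to hexosaminidase A, had 0.11 ± 0.34, and its other probe -0.17.

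Of the 9 sulfatases and other breakdown enzymes, all measured, 0 were called, and the median was -0.08. On all 4 arrays 2 were lower and 0 higher, where 9.94% of all genes were lower and 10.6% higher. The list was at -0.25 in replicate 1 and 0.16 in replicate 2. Ids, the iduronate sulfatase, had 0.21 ± 0.43, with -0.08 by its dimmer probe.

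Of the 7 genes that sort hydrolases to lysosomes, 0 were called. On all 4 arrays 3 were lower and 0 higher, where 9.94% of all genes were lower and 10.6% higher. The median of the 7 sorting genes was -0.10. Here the replicates were close, at -0.07 and -0.14. Scarb2, a membrane protein of lysosomes that also serves as a sorting receptor, had -0.33 ± 0.06, with -0.28 by its other probe. Nagpa, which uncovers the mannose 6-phosphate tag, had -0.20 ± 0.07. No test of a difference between the glycosidases and these lists was made.

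**Figure D3:**
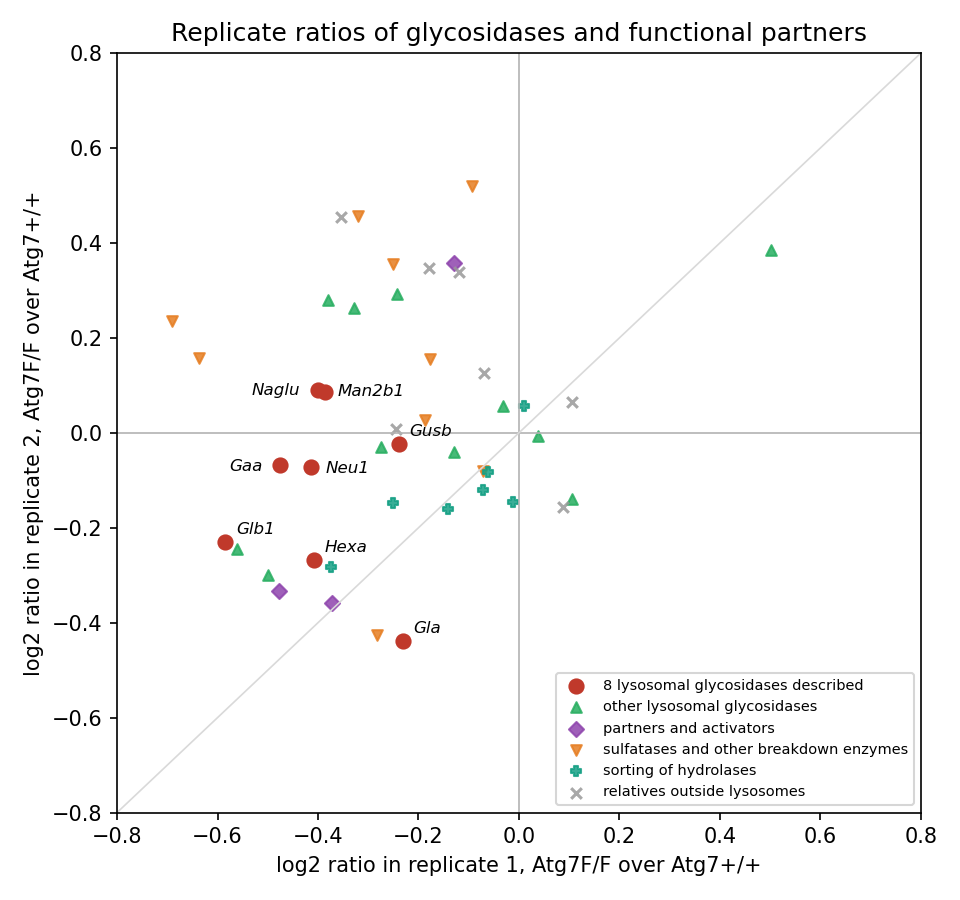
Mean log2 ratio of Atg7F/F over Atg7+/+ in replicate 1 (horizontal) and replicate 2 (vertical) for the 8 glycosidases and 5 related gene lists, with the diagonal marking equal values. All 8 glycosidases lie left of 0, 6 of them also below 0, and Manba, at 0.50 and 0.38, stands farthest to the upper right.

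Relatives of these enzymes outside lysosomes had 7 of 10 members measured and a median of 0.05, with 0 called. On all 4 arrays 0 were lower and 0 higher, where 9.94% of all genes were lower and 10.6% higher. Gba2, a glucosylceramidase of other membranes, had -0.12 ± 0.18, and Man2a1, a Golgi mannosidase, had 0.09 ± 0.03. The sign of Man2a1 followed the dye, at 0.30 and 0.22 with Atg7F/F in Cy5 and at -0.09 and -0.09 in Cy3. Of the transcription factors of lysosomal genes, Tfeb was not measured, and the other 3 had a median of 0.09 with 0 called. Tfe3, a relative of TFEB, had 0.09 ± 0.04, and Zkscan3, described as a repressor of lysosomal genes, had 0.13 ± 0.20. Tfe3 also changed sign with the dye: -0.18 and -0.06 with Atg7F/F in Cy5, and 0.30 and 0.29 in Cy3.

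Markers of other cell types stand beside these values. Of 13 endothelial markers, all measured, 10 were lower and 0 higher on all 4 arrays, against 9.94% and 10.6% of all genes. The 13 markers had a median of -0.35, with 0 called. Their summed signals were 15330 and 16690 in Atg7F/F, against 17190 and 28230 in Atg7+/+ extracts. Mmrn2 and Emcn made up most of each sum, and Emcn had opposite signs in the replicates, at 0.17 and -1.34. Pecam1 had -0.48 ± 0.10 and Vwf -0.70 ± 0.42. Of the 13, 11 had a mean below 0, against 48.6% of all genes, while Flt1 had 0.35 ± 0.41 and Cldn5 0.05 ± 0.91. Endothelial markers were at -0.21 in replicate 1 and -0.48 in replicate 2 by their medians. The glycosidase medians had the opposite order, while Gla, at -0.23 and -0.44, had the order of the endothelial markers.

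The 4 measured macrophage and leukocyte markers had a median of 0.05, with summed signals of 1869 and 4483 in Atg7F/F, against 2482 and 3131 in Atg7+/+ extracts. Most of each sum was Lyz2, with levels of 10.45 and 11.97 in Atg7F/F, against 10.95 and 11.38 in Atg7+/+ extracts. Cd68, itself a lysosomal membrane protein, had -0.37 ± 0.09, and Csf1r had 0.16 ± 0.10. The 7 fibroblast markers had a median of 0.07 (replicate 1, -0.36, replicate 2, 0.50). Their summed signals were 7674 and 6043 in Atg7F/F, against 9788 and 5882 in Atg7+/+ extracts. Of the 7, 3 had a mean below 0, where 48.6% of all genes did. The genes of smallest p, Cd34 at -0.69 ± 0.46 and Dpt at -0.33 ± 0.34, were among these 3, while Ly6a had 0.38 ± 1.28 and Lum 0.16 ± 0.47. The 8 smooth muscle markers had a median of -0.10, and 5 had a mean below 0, where 48.6% of all genes did. Tagln had -0.23 ± 0.06, below 0 on all 4 arrays. Smtn averaged -0.17 ± 0.01, but its sign followed the dye: with Atg7F/F in Cy5 it had -0.47 and -0.43, and with Atg7F/F in Cy3 it had 0.14 and 0.08. The part of these markers in the glycosidase ratios was not tested.

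The genes whose ratios on the 4 arrays lay nearest to the medians of the 8 glycosidases were named by distance over those 4 arrays, which hold only 2 pairs of extracts. Arhgef40, at 0.06, and Nme6, at 0.08, were the nearest with a gene name. Nearer still, at 0.05, was the array contig TC1634523, which has no gene name in the files. A typical member stood 0.28 from the medians, and 174 genes outside all lists lay within that distance.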

How the data were processed

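RNA of 4 extracts, 2 per genotype, was measured on 4 two-colour arrays with dye swaps, all on 1 slide scanned once. The deposited files hold the mean and the local background intensity of each spot and channel. The submitters' processing notes and the headers name Agilent Feature Extraction 10.1.1.1. The deposited table of log2 ratios by the authors equalled the log2 ratios of the software's processed signals within 0.001 for 100% of probes, as Atg7F/F over Atg7+/+ with no further centring. The medians of its columns were 0.199 and -0.0939 (replicate 1) and 0.0809 and -0.0371 (replicate 2). The files place probes on mm9, whose annotation was not used here, so exon or untranslated region is not stated. Promoters are on GRCm38.p6.

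Intensities were corrected with normexp (offset 50, limma 3.58.1, R 4.3.3), normalized by loess within arrays, turned to Atg7F/F over Atg7+/+ and averaged over the dye swap. Levels are channel signals after loess and Aquantile. Non-uniform spots were left out. Probes well above background in at least 1 genotype on all 4 arrays were kept, 17110 of 41174, and the brightest stood for its gene. "Measured" means past this filter. RefSeq accessions gave 25097 probes their symbol, and the rest kept the array's own name. Each gene's pair of ratios was compared with 0 by lmFit and eBayes (3.18 degrees of freedom, two-sided, Benjamini-Hochberg over 12367 genes, threshold 0.05). The p-values rest on the spread between the 2 pairs of extracts. Of the 3.18 degrees of freedom, 2.18 come from the spread over all genes. The number of pairs of extracts limits precision. The code was tested on simulated data.

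Testing ratios within arrays builds the replicate block into the fit, because an array carries both extracts of the same number. Across genes, the deviations of such extracts from the mean of their genotype had a correlation of 0.177. The members and lists were chosen with earlier results of these data known. Named were the 8 members, Atg7, the 2 genes of smallest p in each list and the 3 nearest genes. Idua, Gm2a, Flt1, Cldn5, Mmrn2, Emcn, Lyz2, Ly6a and Lum were named after their values were seen. Some genes that this rule selects are not reported here. Alternatives covered background, normalization, filters, probe choice, variance prior, arrays as units, pairing and each replicate left out.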

Additional observations from a re-analysis of the deposited data

How the results depend on the processing

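Limma's count of 0 higher and 0 lower genes became 7 higher and 2 lower with the 4 arrays and the pair as a random block, and 17 higher and 8 lower with the 4 arrays as independent samples. With no replicate block, the extracts being unpaired, it was 1 higher and 0 lower. None of these calls was a glycosidase: over the alternatives with a test, their smallest adjusted p was 0.206, for Hexa. The count of glycosidases lower on all arrays, 4, was 0 with median centring, 5 with no background subtraction and with the mean over probes, and between 4 and 8 with 1 replicate left out. Their median of -0.26 was -0.16 with median centring and ran from -0.40 to -0.07 with 1 replicate left out. Without replicate 1 the sign turned for Naglu, at 0.0893, and Man2b1, at 0.0858, and Glb1 was at -0.23, Gaa at -0.07, Neu1 at -0.07 and Gusb at -0.02. Without replicate 2, Gaa was at -0.48, Neu1 at -0.41, Gusb at -0.24, Naglu at -0.3995 and Man2b1 at -0.3865. Median centring gave -0.18 for Gaa, -0.15 for Neu1, -0.05 for Gusb, -0.09 for Naglu and -0.07 for Man2b1. Counts for the related lists and cell type markers were made under loess only. The share of all genes lower on all 4 arrays is also given for the main processing only. Dim second probes of Gla, Naglu and Man2b1 limit those genes to 1 probe each, and Hexa and Gaa had only 1 probe on the array.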

Other observations

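Chosen after the values were seen, the 5 lists of lysosomal genes (the 8 glycosidases, other glycosidases, partners, sulfatases and sorting genes) were set side by side by replicate. Of their 38 measured genes, 34 had a ratio below 0 in replicate 1 and 22 in replicate 2, with medians of -0.251 and -0.0352. Among all genes tested, 49.9% were below 0 in replicate 1 and 48.8% in replicate 2. In 28 of the 38 genes, or 73.7%, the ratio of replicate 1 was the lower one, against 51.9% of all genes. Across all genes tested, which are not independent, the ratios of the 2 replicates correlated at -0.0992. The cause of the difference between the replicates was not tested.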
